A study of Homo sapiens with 6 samples.

Results

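The genes described here are the histone genes of RL95-2 cells, a human cell line from an endometrioid endometrial cancer. They were chosen by symbol alone. Of 23228 genes with a count, 86 had a symbol beginning with HIST1H, HIST2H, HIST3H, HIST4H, H2AF or H3F or equal to H1F0 or H1FX, and these fell into 72 replication-dependent genes (the HIST symbols) and 14 replacement genes (the others). The study asked how factors released by fat cells change endometrial cancer cells. RL95-2 cells were grown in RPMI with 10% FBS and then kept for 24 h without serum, either in RPMI and DMEM mixed in equal parts (Control, 3 libraries) or in RPMI mixed with ADP-CM (3 libraries), the medium conditioned by mature primary adipocytes of human visceral fat. Libraries were made with a stranded poly(A) mRNA kit and sequenced as 50 bp single reads. No source says that the 3 libraries of a group came from separate cultures, so the p-values measure the spread between these libraries, which may be technical.

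Histones are the proteins that DNA is wrapped around. Replication-dependent genes supply the bulk of H1, H2A, H2B, H3 and H4 in S phase, when new DNA needs new nucleosomes, and most of their mRNAs end in a short hairpin bound by SLBP in place of a poly(A) tail. Replacement genes encode variants such as H3.3, H2A.Z and macroH2A, which are made throughout the cell cycle from ordinary polyadenylated mRNAs. H2A.X is placed in this class by the symbol of its gene, H2AFX. That gene is an exception, because it holds the hairpin and also has a longer transcript and a poly(A) signal at an annotated end. A library selected by poly(A) therefore holds the replacement mRNAs as a rule and the replication-dependent mRNAs only in part.

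The hairpin separated the classes in the genome sequence. It was searched on the sense strand within 150 bases after the stop codon as a stem of 6 paired bases (G-T pairs included) that opens with GG and closes with CC, around a loop of 4 bases, with T just before the loop and A just after it, in GENCODE release 44 transcripts on GRCh37. All 67 replication-dependent genes with a matched coding transcript held it, starting 23 to 68 bases (median 36) after the stop codon. It was held by 1 of 14 replacement genes and by 107 of 20163 protein-coding genes (0.531%). The 107 include the histone genes of both classes that held it. There were 10 distinct forms, and 39 genes shared the most common one. The sites of the 5 replication-dependent genes with the most reads and of HIST1H2BC, the divergent neighbour of HIST1H2AC, are shown beside H2AFX, the single replacement gene with a match. Each is written 5′ to 3′ as RNA-sense DNA, with the hairpin in capitals and 5 bases on either side.
HIST1H2BK, chr6:27114140-27114165, minus strand: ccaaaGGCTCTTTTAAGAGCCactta
HIST1H1C, chr6:26055967-26055992, minus strand: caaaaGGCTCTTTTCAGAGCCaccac
HIST1H2BD, chr6:26158810-26158835, plus strand: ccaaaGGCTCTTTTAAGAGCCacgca
HIST2H2AC, chr1:149858936-149858961, plus strand: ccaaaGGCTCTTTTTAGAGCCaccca
HIST1H2AC, chr6:26124892-26124917, plus strand: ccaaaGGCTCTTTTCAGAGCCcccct
HIST1H2BC, chr6:26123695-26123720, minus strand: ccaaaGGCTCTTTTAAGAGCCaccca
H2AFX, chr11:118965603-118965628, minus strand: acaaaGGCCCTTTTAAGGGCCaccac
Among the replication-dependent hairpins shown the stem was the same and the loop took 3 forms. In H2AFX the hairpin began 50 bases after the stop codon, a transcript ran on for 1024 bases past it, and a poly(A) signal lay at an annotated end.

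Reads on genes numbered 16262614 to 17096135 per Control library and 18103609 to 18363033 per ADP-CM library, so each ADP-CM library was deeper than each Control library. Reads on no gene made up 10.3% ± 0.0528 of all counted in Control and 11.5% ± 0.0331 in ADP-CM (SD over 3 libraries each). Of 8 markers of endometrial epithelial carcinoma cells all had reads, summing to 4189 ± 39.1 CPM (counts per 1000000 reads on genes, scaled by TMM) in Control and 3522 ± 27.5 CPM in ADP-CM. Of these 8, PAX8 and MUC1 rose and CDH1, KRT8, KRT18, KRT19 and CLDN4 fell at an adjusted p under 0.01 (edgeR), where 13.5% of all tested genes rose and 13.0% fell. The 9 adipocyte markers summed to 10.3 to 10.7 CPM in Control and 10.4 to 12.3 CPM in ADP-CM, mostly from CFD, with ADIPOQ and LEP at 0 in every library. The 7 fibroblast markers summed to 61.5 to 68.4 and 78.3 to 79.1 CPM, mostly from COL1A1, and the 6 leukocyte markers to 8.25 to 9.25 and 10.7 to 12.9 CPM, mostly from CD68. Of the 2 fibroblast markers tested 1 rose and 0 fell by edgeR's test, and the same held for the 2 leukocyte markers tested. The 1 adipocyte marker tested was not called. THY1, DCN, COL1A2, PTPRC, CD3E and MS4A1 lay at or below 0.0395 CPM in both groups, and markers not named here are given only within the sums. The part of these markers in the histone values was not tested. Whole cultures were sequenced after poly(A) selection. Fewer cells in S phase, less histone RNA per cell and a smaller polyadenylated part of that RNA therefore cannot be told apart.

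Many replication-dependent genes were listed at 0. Of the 72, 28 (38.9%) had no read in any library, beside 27.7% of all genes, 6 had at most 3 reads in any library and 38 had more than 3. A count of 0 in 1 library allows up to 3 counts, or 0.163 to 0.185 CPM, and this limit covers counting error only. Of the 28 genes, 6 had no exonic stretch of 50 bases found once in GRCh37, so that reads on them could not align uniquely. These were the duplicated HIST2H2AA3 and HIST2H2AA4, HIST2H3A and HIST2H3C, and HIST2H4A and HIST2H4B. Another 20 had at least 93.6% of such stretches unique, and in 15 of them all were. Among these 20 were HIST1H1A and HIST1H1B, which encode linker histones, and HIST1H4A and HIST1H4I, which encode H4. The remaining 2, HIST1H4F and HIST2H2BA, had no matched annotation. Of the replacement genes, 4 were listed at 0, namely H3F3A and the testis genes H2AFB1, H2AFB2 and H2AFB3. H3F3A, a gene for H3.3, had 76.7% of its stretches unique, and its transcripts are those of a widely expressed gene, so it is reported as listed at 0 and not as silent. HIST1H2BK, the replication-dependent gene with the most reads, had 42.8% of its stretches unique, so the counting leaves out part of its reads and its level is uncertain.

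**Figure D1:**
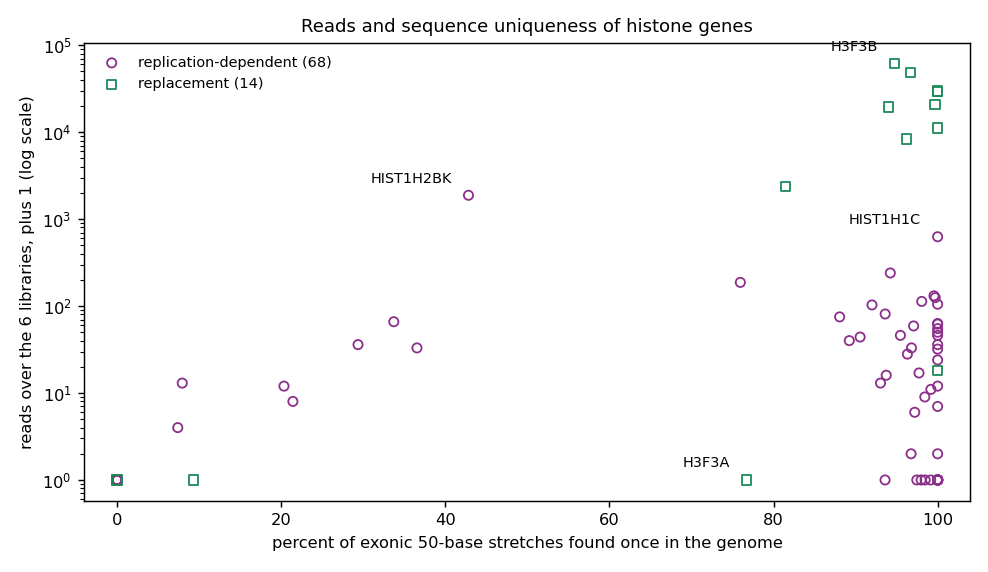
Each point is a histone gene with matched annotation (68 replication-dependent, 14 replacement); the horizontal axis is the percent of exonic 50-base stretches found once in GRCh37 and the vertical axis is the reads over the 6 libraries plus 1, on a log scale. Genes at 0 sit at the bottom edge at both ends of the horizontal axis, and H3F3A lies there at 76.7%.

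Replication-dependent histone RNA, as captured in these poly(A) libraries, was lower in ADP-CM. Summed over the 72 genes it was 50.4, 49.9 and 48.5 CPM in Control libraries, compared with 37.1, 40.5 and 37.5 CPM in ADP-CM libraries. Every ADP-CM library lay below every Control library. The sum was 49.6 ± 0.942 CPM in Control against 38.3 ± 1.84 CPM in ADP-CM (SD, n = 3), a log2 ratio of -0.37, and it is given with no test because it is a score over chosen genes. The raw reads behind it were 817, 842 and 830 in Control and 672, 742 and 689 in ADP-CM. HIST1H2BK made up 43.3% ± 1.25 of these reads in Control and 37.9% ± 1.14 in ADP-CM, and without it the sum was 28.1 ± 1.15 CPM in Control against 23.8 ± 0.835 CPM in ADP-CM (log2 ratio -0.24).

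**Figure D2:**
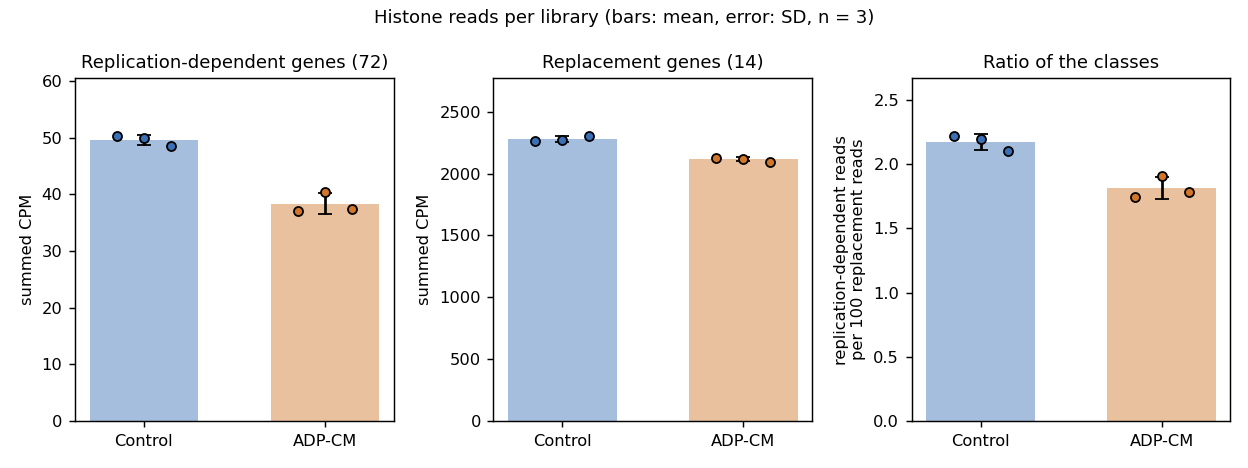
Summed CPM of the 72 replication-dependent genes, summed CPM of the 14 replacement genes and replication-dependent reads per 100 replacement reads, with 1 point per library, bars for the mean and lines for the SD (n = 3 per group). In each panel the 3 ADP-CM libraries lie below the 3 Control libraries.

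Of the 72 genes, 13 had enough reads to be tested, and 59 did not pass the filter on low counts. By edgeR's quasi-likelihood test, with p-values adjusted over 12663 genes after Benjamini and Hochberg, HIST1H2BK and HIST1H2AC fell at an adjusted p under 0.01, 2 of 13, where 13.0% of all tested genes fell, so that the share is near the background. None rose, where 13.5% of all tested genes rose. At an unadjusted p under 0.05, 3 fell and 0 rose, beside 22.4% and 22.6% of all tested genes, and DESeq2 called 1 lower and 0 higher. The log2 fold change was below 0 in 12 of 13, with a median of -0.20, against 50.6% below 0 and a median of -0.0023 over all tested genes. In 3 of the 13 all ADP-CM libraries lay below all Control libraries, as in 22.8% of all tested genes. The 59 untested genes summed to 8.18 ± 0.968 CPM in Control against 7.35 ± 0.647 CPM in ADP-CM (log2 ratio -0.16), and the groups overlapped. Of these, HIST1H2AE and HIST1H3H are named after their values were seen. HIST1H2AE had 3, 6 and 4 reads in Control libraries and 12, 12 and 8 in ADP-CM libraries, higher without overlap in CPM. HIST1H3H had 9, 14 and 10 reads in Control libraries and 9, 9 and 10 in ADP-CM libraries, lower without overlap in CPM. Both had too few reads to be tested.

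HIST1H2BK, which encodes an H2B, had 345, 363 and 371 reads in Control libraries, compared with 246, 288 and 263 in ADP-CM libraries. The highest ADP-CM library stayed well below the lowest Control library. The level fell from 21.5 ± 0.215 to 14.5 ± 1.08 CPM (log2 fold change -0.56, SE 0.0714, adjusted p = 1.63e-09 by edgeR). The gene has 1 exon (chr6:27114140-27114634, minus strand of GRCh37). HIST1H2AC, which encodes an H2A, had 27, 28 and 29 reads in Control libraries, compared with 16, 22 and 8 in ADP-CM libraries. The Control libraries lay close together, and ADP-CM replicate 3 was the lowest. The level fell from 1.67 ± 0.0202 to 0.839 ± 0.384 CPM (log2 fold change -0.99, SE 0.282, adjusted p = 0.00387 by edgeR), and of the 22 tested histone genes only this one passed both that threshold and a fold of 1.5. This call rested on few reads. With DESeq2 the adjusted p was 0.0400, and without each library in turn it was over 0.01 in 5 of 6 fits, namely 0.0127, 0.0144 and 0.0165 without Control replicates 1, 2 and 3, 0.0119 without ADP-CM replicate 1 and 0.0645 without ADP-CM replicate 3 (log2 fold change -0.68).

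HIST1H2BC, an H2B gene that starts 218 bases from HIST1H2AC on the other strand, is named after its values were seen. It had 24, 20 and 26 reads in Control libraries, compared with 10, 19 and 13 in ADP-CM libraries. The groups did not overlap, and ADP-CM replicate 2 came close to the lowest Control library. The change did not pass the threshold (log2 fold change -0.86, 95% interval -1.45 to -0.27, adjusted p = 0.0170 by edgeR) except without ADP-CM replicate 2 (adjusted p = 0.00875, log2 fold change -1.14). Of its annotated exons, 30.9% overlap genes on the opposite strand, HFE among them, and the strand setting of the counting was not given. HIST1H2BK has a divergent neighbour too, the H2A gene HIST1H2AH, which starts 250 bases from it and is likewise named after its values were seen. HIST1H2AH had 5, 6 and 4 reads in Control libraries, compared with 4, 6 and 7 in ADP-CM libraries. The groups overlapped, and the reads were too few to be tested.

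The other replication-dependent genes with the most reads gave overlapping groups. HIST1H1C, which encodes the linker histone H1.2, had 98, 105 and 111 reads in Control libraries, compared with 115, 98 and 98 in ADP-CM libraries (log2 fold change -0.14, 95% interval -0.39 to 0.11, adjusted p = 0.401 by edgeR). ADP-CM replicate 1 held the most reads of the 6 libraries, though not the highest CPM. HIST1H2BD, another H2B gene, had 41, 47 and 34 reads in Control libraries, compared with 36, 42 and 39 in ADP-CM libraries (log2 fold change -0.19, 95% interval -0.59 to 0.21, adjusted p = 0.498 by edgeR). HIST2H2AC, an H2A gene on chromosome 1, had 25, 28 and 42 reads in Control libraries, compared with 24, 31 and 36 in ADP-CM libraries (log2 fold change -0.19, 95% interval -0.65 to 0.28, adjusted p = 0.561 by edgeR). Here 1 Control library, replicate 3, stood above the rest, and without it the log2 fold change was 0.05. HIST3H2A was the only one of the 13 with a value above 0 (log2 fold change 0.11, adjusted p = 0.800 by edgeR).

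**Figure D3:**
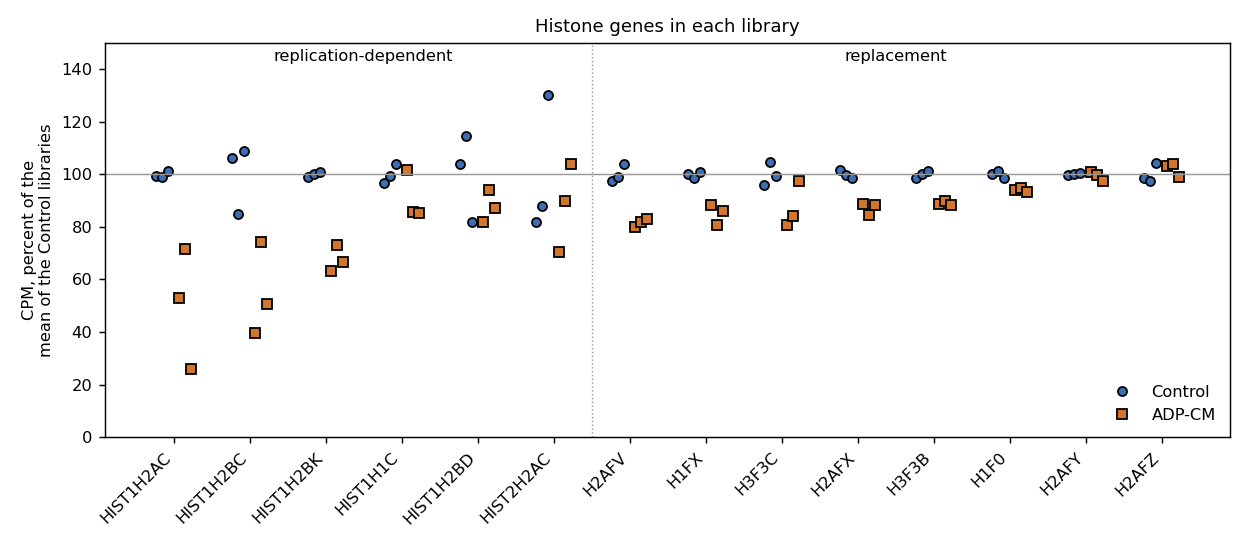
CPM in each library as a percent of the Control mean of the same gene, for 6 replication-dependent and 8 replacement genes; circles are the 3 Control libraries and squares the 3 ADP-CM libraries, and the grey line marks 100 percent. The ADP-CM squares of HIST1H2AC spread widely, and those of H2AFZ lie among the Control circles.

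By histone type, the H2B genes carried most of the difference. The 20 H2B genes summed to 30.3 ± 0.617 CPM in Control against 21.2 ± 1.53 CPM in ADP-CM (log2 ratio -0.51), of which HIST1H2BK is the main part. The 17 H2A genes summed to 8.22 ± 0.586 CPM in Control against 7.06 ± 0.667 CPM in ADP-CM (-0.22). The 14 H3 genes summed to 2.17 ± 0.379 CPM in Control against 1.86 ± 0.515 CPM in ADP-CM (-0.22), and the 6 H1 genes to 7.41 ± 0.318 CPM in Control against 6.62 ± 0.469 CPM in ADP-CM (-0.16). The 15 H4 genes, of which none was tested, summed to 1.51 ± 0.0572 CPM in Control against 1.57 ± 0.237 CPM in ADP-CM (0.05). The groups did not overlap for H2B and, narrowly, for H2A and H1, and they overlapped for H3 and H4. By cluster, the 55 HIST1 genes of chromosome 6 summed to 44.5 ± 1.25 CPM in Control against 34.0 ± 2.24 CPM in ADP-CM (log2 ratio -0.39), the 13 HIST2 genes to 3.74 ± 0.591 CPM in Control against 2.93 ± 0.435 CPM in ADP-CM (-0.35) and the 3 HIST3 genes to 1.28 ± 0.230 CPM in Control against 1.31 ± 0.345 CPM in ADP-CM (0.04). HIST4H4, alone in its cluster, had 5 reads in each group.

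Some replication-dependent genes are annotated with a transcript that runs on past the hairpin. For 16 of them a transcript ran more than 100 bases past it and a poly(A) signal lay at an annotated end. The signal was AATAAA or ATTAAA in the last 40 bases of any annotated transcript, not necessarily the longer one. HIST1H2BD, HIST1H2AC and HIST1H2BC were among the 16. For 51 such a transcript, such a signal or both were missing, HIST1H2BK and HIST1H1C among them. The 16 had a median of 39 reads over the 6 libraries with 4 at 0, and the 51 a median of 7 reads with 22 at 0. Summed levels were 10.0 ± 0.289 CPM in Control and 7.40 ± 0.564 CPM in ADP-CM for the 16 (log2 ratio -0.44), and 38.6 ± 0.566 and 30.0 ± 1.43 CPM for the 51 (log2 ratio -0.36). HIST1H2BK alone held 21.5 of the 38.6 CPM in Control and 14.5 of the 30.0 CPM in ADP-CM. The log2 ratio of the 51 therefore rested largely on this gene. In both sets the ADP-CM libraries lay below the Control libraries, and in each set 1 gene fell by edgeR's test, HIST1H2AC of 5 tested in the first and HIST1H2BK of 8 tested in the second. Reads of the longer and the hairpin form are not separated in gene counts.

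The promoters of the 2 genes that fell are shown because both hold the octamer ATTTGCAT, which POU2F1 binds and which is known from H2B promoters. RefSeq windows of 300 bases on GRCh38.p14, from 250 bases before to 50 after the start, were searched on both strands for the octamer, CCAAT and TATAAA, whose matches may overlap. Genes were counted, each with a match in any of its windows. The octamer lay in 24 of 60 replication-dependent genes found, in 1 of 12 replacement genes and in 2.19% of all 27305 genes. By type it lay in 12 of 16 H2B genes, 11 of 15 H2A, 1 of 12 H3 and none of the 6 H1 or 11 H4 genes. For replication-dependent, replacement and all genes, CCAAT lay in 51 of 60, 10 of 12 and 39.7%. In that order, TATAAA lay in 41 of 60, 4 of 12 and 13.99%. Capitals mark the matches to any of the 3, and each line gives the RNA-sense strand, 5′ to 3′.
HIST1H2BK, chr6:27146809-27147108, minus strand: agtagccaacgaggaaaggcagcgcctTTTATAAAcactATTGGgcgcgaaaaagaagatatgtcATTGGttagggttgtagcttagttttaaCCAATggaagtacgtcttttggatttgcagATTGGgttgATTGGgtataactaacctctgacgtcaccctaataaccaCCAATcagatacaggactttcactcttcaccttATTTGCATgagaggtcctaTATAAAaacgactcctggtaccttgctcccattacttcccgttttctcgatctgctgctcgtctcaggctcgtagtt
HIST1H2AC, chr6:26123922-26124221, plus strand: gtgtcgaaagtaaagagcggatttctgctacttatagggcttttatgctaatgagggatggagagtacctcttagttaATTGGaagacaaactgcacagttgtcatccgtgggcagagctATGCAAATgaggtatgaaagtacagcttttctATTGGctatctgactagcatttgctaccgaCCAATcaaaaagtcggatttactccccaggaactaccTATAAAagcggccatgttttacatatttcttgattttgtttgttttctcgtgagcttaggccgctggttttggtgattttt
Each window held 1 octamer, in HIST1H2AC as the reverse complement ATGCAAAT. The annotated starts of HIST1H2AC and its divergent neighbour HIST1H2BC lie 218 bases apart. Windows of this size can therefore overlap, and a match can count for both an H2A and an H2B gene. HIST1H2BK held 6 CCAAT and 3 TATAAA matches and HIST1H2AC 3 and 1. A match describes letters in the window and not a bound site.

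Replacement histone RNA was far more abundant in these libraries and was also lower in ADP-CM, by a smaller proportion. The 14 genes summed to 2264, 2272 and 2308 CPM in Control libraries, compared with 2128, 2119.6 and 2097 CPM in ADP-CM libraries. The groups did not overlap. The sum was 2281 ± 23.3 CPM in Control against 2115 ± 16.1 CPM in ADP-CM (SD, n = 3), a log2 ratio of -0.11. Of the 14 genes, 9 were tested, and 5 fell at an adjusted p under 0.01 by edgeR's test, H2AFV, H1FX, H2AFX, H3F3B and H1F0, beside 13.0% of all tested genes. None rose, 0 rose at an unadjusted p under 0.05 where 6 fell, beside 22.6% and 22.4% of all tested genes, and DESeq2 called 0 higher. The log2 fold change was below 0 in 8 of 9, with a median of -0.17 and a range of -0.29 to 0.03, so none fell by 1.5-fold. Leaving out replicate 3 of both groups, H2AFZ rose (log2 fold change 0.08, adjusted p = 0.00203), with 6 lower.

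H2AFV, which encodes H2A.Z.2, had 3229, 3410 and 3629 reads in Control libraries, compared with 2955, 3070 and 3124 in ADP-CM libraries, and after scaling 199, 202 and 212 CPM in Control and 163, 167 and 169.8 in ADP-CM. All 3 ADP-CM libraries were below all Control libraries. The level fell from 204 ± 6.93 to 167 ± 3.35 CPM (log2 fold change -0.29, SE 0.0278, adjusted p = 1.03e-13 by edgeR). H1FX, which encodes the linker histone H1X, stood at 115, 113 and 116 CPM in Control and 101, 92.6 and 98.8 in ADP-CM (log2 fold change -0.24, SE 0.0336, adjusted p = 3.66e-08 by edgeR). The groups did not overlap, and 22.8% of its exonic bases lie opposite an antisense gene. H2AFX, which encodes H2A.X, the variant phosphorylated beside DNA breaks, stood at 215, 210.3 and 208 CPM in Control and 187, 179 and 187 in ADP-CM (log2 fold change -0.20, SE 0.0267, adjusted p = 1.02e-08 by edgeR). Its groups did not overlap either, and reads of its hairpin form and its longer form are not separated in gene counts.

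H3F3B, which encodes H3.3 and had the most reads of all histone genes, stood at 612, 621 and 629 CPM in Control and 552, 558 and 548 in ADP-CM (log2 fold change -0.17, SE 0.0195, adjusted p = 1.13e-10 by edgeR). The 3 libraries of each group lay within a few percent of each other and the groups were apart. H1F0, which encodes the linker histone H1.0 of slowly dividing and differentiated cells, stood at 293, 296 and 288 CPM in Control and 274, 276 and 272 in ADP-CM (log2 fold change -0.09, SE 0.0234, adjusted p = 0.00128 by edgeR). The groups did not overlap, and without Control replicate 2 the adjusted p was 0.0167. H3F3C, a retrocopy that encodes H3.5, is named after its values were seen, with 379, 430 and 413 reads in Control libraries, compared with 355, 375 and 436 in ADP-CM libraries (log2 fold change -0.19, 95% interval -0.33 to -0.06, adjusted p = 0.0159 by edgeR). Of its exonic 50-base stretches 81.5% were unique. ADP-CM replicate 3 overlapped the Control libraries, and without it the adjusted p was 0.000903 and the log2 fold change -0.28.

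H2AFZ, which encodes H2A.Z.1, stood at 445, 439 and 470.2 CPM in Control and 466, 469 and 447 in ADP-CM. The groups overlapped (log2 fold change 0.03, 95% interval -0.02 to 0.07, adjusted p = 0.321 by edgeR). H2AFY, which encodes macroH2A1, stood at 280.1, 282 and 282 CPM in Control and 284, 280.3 and 274 in ADP-CM (log2 fold change -0.01, 95% interval -0.06 to 0.04, adjusted p = 0.746 by edgeR). Its groups overlapped too, and 28.6% of its exonic bases lie opposite other genes. The 2 H2A.Z genes, a pair set side by side after their values were seen, are given no test. H2AFV had 44.7, 46.0 and 45.1 reads per 100 H2AFZ reads in Control and 35.0, 35.7 and 38.0 in ADP-CM. The groups did not overlap, and the ratio needs no scaling between libraries. Of the remaining tested gene, H2AFY2 (macroH2A2), the log2 fold change was -0.04 (95% interval -0.12 to 0.03, adjusted p = 0.381 by edgeR).

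**Figure D4:**
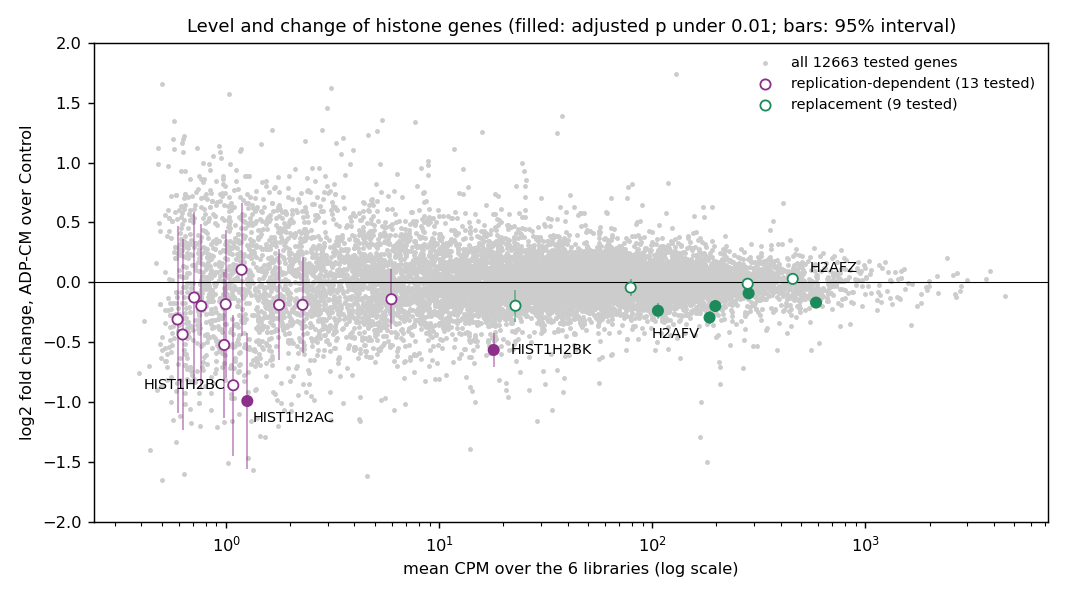
Log2 fold change of ADP-CM over Control against mean CPM over the 6 libraries (log scale); grey points are all 12663 tested genes, of which 6 lie beyond the vertical limits of 2, purple circles the 13 replication-dependent and green circles the 9 replacement genes tested. Filled circles have an adjusted p under 0.01 and bars are 95% intervals, which are wide for the replication-dependent genes at the left.

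Levels of the classes were far apart per length. Per kilobase of the main annotated transcript, Control levels of the 13 tested replication-dependent genes had a median of 2.23 CPM (0.519 to 43.4) and those of the 9 tested replacement genes a median of 133 CPM (21.8 to 521). The main transcripts of the 65 replication-dependent genes with one have 1 exon and 386 to 2224 bases (median 492), against 587 to 3026 bases (median 1315) for the replacement genes, 8 of which have 1 exon. Replication-dependent reads per 100 replacement reads were 2.22, 2.19 and 2.10 in Control and 1.74, 1.91 and 1.79 in ADP-CM. No ADP-CM library reached a Control library, and this ratio needs no scaling. The separation rested on HIST1H2BK, without which the ratios were 1.29, 1.25 and 1.16 in Control and 1.11, 1.17 and 1.10 in ADP-CM, with overlap of the groups and a log2 ratio of -0.13. With all genes the means were 2.17 ± 0.0631 and 1.81 ± 0.0853 (SD, n = 3), a log2 ratio of -0.26, and -0.15 without the gene with the most reads in each class. No test was made of the difference between the classes. Outside the rule, CENPA, the H3 variant of centromeres, stood at 84.1, 81.7 and 80.5 CPM in Control and 74.1, 74.1 and 70.7 in ADP-CM and fell (log2 fold change -0.17, SE 0.0367, adjusted p = 1.41e-04 by edgeR), and it was the only one of 6 further histone genes tested, 4 of which were at 0.

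Genes that make and end replication-dependent histone mRNA, a list of 16 that includes SLBP, NPAT and the cleavage factors, had a median log2 fold change of 0.02. Of these 16, 1 fell and 0 rose by edgeR's test, beside 13.0% and 13.5% of all tested genes, so that neither count exceeds the background (2 and 1 at an unadjusted p under 0.05, beside 22.4% and 22.6%, and 0 by DESeq2). CSTF2, a subunit of the cleavage complex, stood at 56.8, 61.4 and 60.5 CPM in Control and 56.3, 56.4 and 49.4 in ADP-CM and fell (log2 fold change -0.14, SE 0.0451, adjusted p = 0.00970 by edgeR), a call lost with library totals, with DESeq2, without Control replicate 2 or 3, without ADP-CM replicate 3 (log2 fold change -0.08, adjusted p = 0.170) and without replicate 3 of both groups (-0.07, adjusted p = 0.313). MIF4GD, which links SLBP to translation, stood at 13.3, 11.4 and 11.8 CPM in Control and 9.72, 9.11 and 11.6 in ADP-CM (log2 fold change -0.26, 95% interval -0.45 to -0.07, adjusted p = 0.0270 by edgeR). LSM10, a protein of the U7 particle, stood at 38.8, 36.95 and 38.7 CPM in Control and 41.5, 39.8 and 42.5 in ADP-CM (log2 fold change 0.11, 95% interval 0.01 to 0.21, adjusted p = 0.0660 by edgeR). Without ADP-CM replicate 3 MIF4GD passed the threshold (log2 fold change -0.37, adjusted p = 0.00276). The groups overlapped for MIF4GD and lay close together without overlap for LSM10.

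Of 9 genes for histone supply and deposition at replication, 2 fell and 0 rose by edgeR's test, beside 13.0% and 13.5% of all tested genes (2 and 2 at an unadjusted p under 0.05, and 2 and 0 by DESeq2), with a median log2 fold change of -0.03. ASF1B, a chaperone of H3 and H4, stood at 148, 148 and 155 CPM in Control and 135, 125 and 127 in ADP-CM and fell (log2 fold change -0.22, SE 0.0309, adjusted p = 3.27e-08 by edgeR). HAT1, which acetylates new H4, stood at 189, 197 and 204 CPM in Control and 182, 188 and 174 in ADP-CM and fell (log2 fold change -0.12, SE 0.0287, adjusted p = 8.72e-04 by edgeR). Without Control replicate 3 the adjusted p of HAT1 was 0.0318, so that 1 of the 9 fell. RBBP4, a CAF-1 subunit, stood at 211, 209 and 211 CPM in Control and 225, 216 and 217 in ADP-CM (log2 fold change 0.06, 95% interval 0.01 to 0.11, adjusted p = 0.0567 by edgeR). Of 12 genes for deposition and exchange outside replication, 2 rose and 3 fell by edgeR's test, beside 13.5% and 13.0% of all tested genes. HJURP, the chaperone of CENP-A, stood at 127, 131 and 127 CPM in Control and 108, 114 and 108 in ADP-CM and fell (log2 fold change -0.22, SE 0.0318, adjusted p = 7.58e-08 by edgeR). ACTL6A, a subunit of remodelling complexes, stood at 154, 145 and 144 CPM in Control and 129, 131 and 129.9 in ADP-CM and fell (log2 fold change -0.18, SE 0.0303, adjusted p = 1.30e-06 by edgeR). ATRX, which deposits H3.3 together with DAXX, stood at 94.98, 98.5 and 93.7 CPM in Control and 112, 107 and 108 in ADP-CM and rose (log2 fold change 0.19, SE 0.0333, adjusted p = 5.16e-06 by edgeR). For these 3 the groups did not overlap. The others called were SRCAP, which exchanges H2A.Z into nucleosomes (log2 fold change 0.12, higher), and VPS72, its H2A.Z-binding partner (-0.19, lower).

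Many S phase genes were lower in ADP-CM. Of 26, 12 fell and 0 rose by edgeR's test, where 13.0% and 13.5% of all tested genes did, with a median log2 fold change of -0.11 (16 and 0 at an unadjusted p under 0.05, and 10 and 0 by DESeq2). RRM2, a subunit of ribonucleotide reductase, stood at 496, 512 and 499 CPM in Control and 391, 393 and 384 in ADP-CM and fell (log2 fold change -0.37, SE 0.0210, adjusted p = 2.83e-23 by edgeR). CCNE2, which encodes cyclin E2, stood at 73.7, 79.1 and 78.8 CPM in Control and 49.3, 52.9 and 50.2 in ADP-CM and fell (log2 fold change -0.60, SE 0.0410, adjusted p = 1.10e-19 by edgeR). TYMS, thymidylate synthase, stood at 401, 393 and 406 CPM in Control and 340.4, 337 and 336 in ADP-CM and fell (log2 fold change -0.25, SE 0.0218, adjusted p = 9.84e-15 by edgeR). In each the groups were far apart beside the spread within them. The other 9 were PCNA, MCM5, GINS1, GINS2, RRM1, CDC6, CDT1, CCNA2 and POLA1, and the 12 lay between -0.60 and -0.13. The part of S phase in the histone values was not tested.

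As a sum, reads counted on genes for other RNAs without a poly(A) tail were higher in ADP-CM, opposite to the sum of the replication-dependent histones. The 399 genes for snoRNAs, scaRNAs, spliceosomal RNAs and single RNAs such as RMRP, 137 of them at 0, summed to 168, 172 and 179 CPM in Control and 222, 226 and 224 CPM in ADP-CM. The groups did not overlap, and the log2 ratio was 0.37. Of 97 tested, 9 rose (9.28%) and 0 fell by edgeR's test, beside 13.5% and 13.0% of all tested genes. Neither count exceeds this background, and DESeq2 called 2 higher and 0 lower. At an unadjusted p under 0.05, 30 rose and 0 fell, beside 22.6% and 22.4% of all tested genes. The log2 fold change was above 0 in 89 and below 0 in 8, where 50.6% of all tested genes lay below 0. The 9 that rose by edgeR's test became 4 without Control replicate 1 or without ADP-CM replicate 2, and 5 without ADP-CM replicate 1. All 9 were SNORD genes, box C/D snoRNAs that lie in introns of host genes and guide RNA methylation. Gene counts do not separate reads of such an RNA from reads of the host transcript that contains it. SNORD27 stood at 1.29, 1.90 and 1.11 CPM in Control and 2.76, 2.73 and 2.83 in ADP-CM and rose (log2 fold change 0.95, SE 0.216, adjusted p = 3.11e-04 by edgeR). SNORD76 stood at 3.76, 4.44 and 3.92 CPM in Control and 5.47, 6.43 and 6.47 in ADP-CM and rose (log2 fold change 0.60, SE 0.138, adjusted p = 3.44e-04 by edgeR). SNORD78 stood at 0.493, 1.01 and 0.702 CPM in Control and 1.66, 1.80 and 1.30 in ADP-CM and rose (log2 fold change 1.10, SE 0.291, adjusted p = 0.00187 by edgeR). In these 3 the groups did not overlap. The call of SNORD78 was lost with DESeq2 and without Control replicate 1 or 3 or ADP-CM replicate 2 (adjusted p = 0.0120 to 0.0279). The share of reads on no gene was also higher in ADP-CM, as given above, and whether it bears on these RNAs or on the histone values was not tested.

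**Figure D5:**
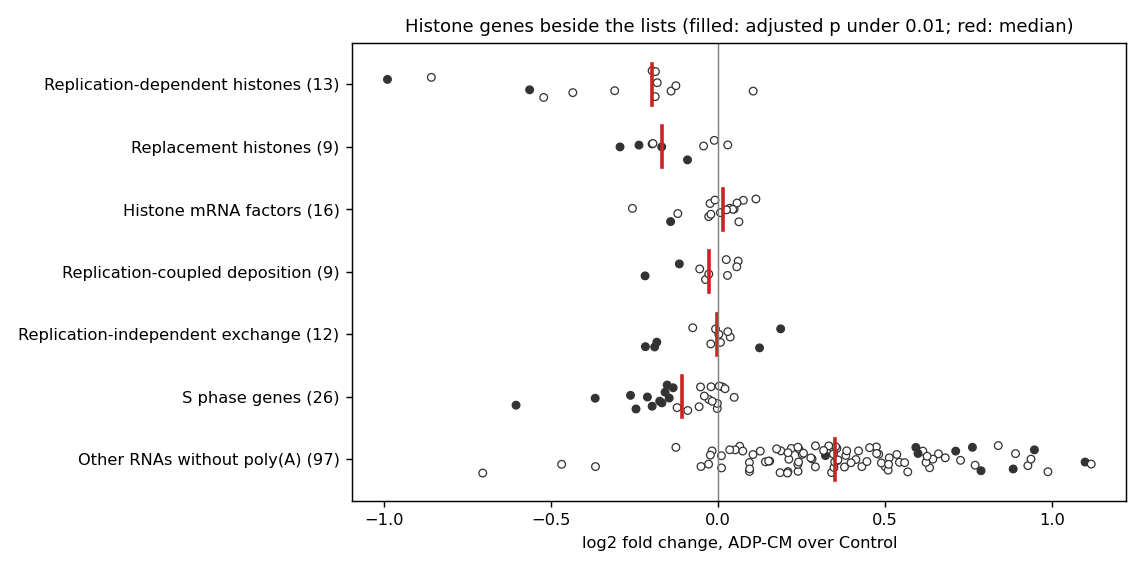
Log2 fold change of ADP-CM over Control for each tested gene (points, filled where the adjusted p is under 0.01) of the 2 histone classes and 5 further lists, with the number tested in brackets and the median as a red line. The medians of both histone classes and of the S phase genes lie below 0, and that of the other RNAs without a poly(A) tail lies at 0.35.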

How the data were processed

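The deposited values were raw read counts per gene for 6 libraries of RL95-2 cells, 3 Control and 3 ADP-CM. Per the labels and the study's methods, the authors ran bcl2fastq, TopHat2 on hg19, SAMtools and HTSeq with RefSeq genes, in versions not given in the sources used here, nor was the strand setting. The 5 summary lines without a gene (31.4% to 33.0% of all counted reads) were left out of library sizes and tests. HTSeq leaves out reads with several alignments (20.5% in Control, 20.7% in ADP-CM), which lowers genes with near copies.

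In R 4.3.3, edgeR 4.0.16 scaled the counts by TMM, kept 12663 of 23228 genes by filterByExpr with its defaults, and compared the groups by the quasi-likelihood test. Calls needed an adjusted p (Benjamini-Hochberg) under 0.01. CPM values are TMM-scaled, with SD over 3 libraries. Class sums got no test. Symbols, exons, hairpins and unique 50-base stretches were read from GENCODE release 44 on GRCh37 (82 of 86 genes matched) with pyfaidx 0.9.0.4, and promoters from RefSeq on GRCh38.p14. These gene models are not those used in the counting. The scripts were checked on simulated counts.

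Named with values were the histone genes called, the 5 with the most reads in each class and, of each pathway list, the 3 with the smallest p-values. The genes and lists were chosen with earlier results of these data known. Alternatives were DESeq2's size factors or library totals, DESeq2 1.42.0, a filter left out or set to 10 counts in each library, a fold limit of 1.5, an adjusted p of 0.05, the replicate number as a block, the class sums without their top gene, and each library left out. The fit without replicate 3 of both groups was added after the data were seen.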

Additional observations from a re-analysis of the deposited data

How the results depend on the processing

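The count of all genes that rose, 1707, was 1124 with DESeq2, 144 with a fold limit of 1.5 and 1347 to 1632 with a library left out. The count that fell, 1650, was 1015, 144 and 1281 to 1574. The 2 replication-dependent genes that fell became 1 with DESeq2, with at least 10 counts in every library, with the fold limit and without replicate 3 of both groups, and 1 to 3 with a library left out, 1 in each fit but that without ADP-CM replicate 2. The 5 replacement genes that fell became 0 with the fold limit and 4 to 6 with a library left out, and the 0 that rose became 1 without replicate 3 of both groups. The log2 ratio of the replication-dependent sum, -0.37, was -0.24 without its top gene and -0.41 to -0.35 with a library left out. That of the replacement sum, -0.11, was -0.088, -0.095 without replicate 3 of both groups and -0.11 to -0.10. That of their ratio, -0.26, was -0.15 without the top gene of each class and -0.30 to -0.23. The cause of these shifts was not tested, beyond the fewer genes or libraries used. Among the genes named, HIST2H2AC (log2 fold change -0.19, not called) lay between -0.32 and 0.052 with a library left out, above 0 without Control replicate 3. H2AFY (-0.01, not called) lay between -0.023 and 0.0029, above 0 without ADP-CM replicate 3, and at 0.0059 without replicate 3 of both groups. Of the other named genes fitted under each alternative, none changed direction. Deviations of same-numbered libraries from their group means correlated at 0.057, 0.030 and 0.088. These values are small, but each library correlated best with its own number, so whether the numbers pair the libraries is undecided. With the replicate block, 1786 genes rose and 1716 fell, 2 replication-dependent and 5 replacement genes among the latter. Of the replication-dependent genes, 59 of 72 had too few counts to be tested.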
